A study of Mus musculus with 12 samples.

Results

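Interferon-stimulated genes are the genes that cells switch on after interferon binds its receptors. The 43 genes described here were taken by symbol from a list of such genes, and all 43 were found among the 39017 genes of the deposited count table of mouse lung tumor RNA. They were followed across 12 lung adenocarcinomas in 4 groups of 3 tumors, labelled KP, KP_PPARaDN, KPG1 and KPG1_PPARaDN. All mice were on a C57BL/6 background with the genotype K-ras LSL-G12D/WT; p53 Fl/Fl; CCSP-rtTA, and the KPG1 groups carried Glut1 Fl/Fl in addition, so that Cre also deletes the glucose transporter gene Slc2a1. Every mouse received 6000 viral units of Lenti.TRE-PPARaD13_PGK-Cre. This vector delivers Cre together with a doxycycline-driven, dominant-negative form of PPARa, a nuclear receptor of fatty acid metabolism. Doxycycline was fed to the PPARaDN groups at 625 mg/kg of diet over 15 days, while the others kept a regular diet, so that diet and induction of the transgene changed together. Mice were taken at 26 weeks of tumor growth, and the cells used for RNA were those left after magnetic depletion of CD45-positive cells. The transactivator rtTA is driven by the promoter of the club cell secretory protein, which limits induction to cells in which that promoter is active.

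The interferon pathway works in layers. Sensors of foreign or misplaced nucleic acid, such as Ifih1 (MDA5) and Ddx58 (RIG-I), start the production of type I and type III interferons, while lymphocytes are the main source of interferon gamma. Receptor binding activates transcription factors, among them Stat2, which with Irf9 is part of a complex that binds an element called ISRE in target promoters, whereas interferon gamma acts mainly through another element called GAS. The products of the target genes block translation, degrade RNA, trap virus particles or attack pathogen vacuoles, and several of them, the sensors and transcription factors included, feed back on the pathway. In lung, both alveolar epithelium and resident or infiltrating leukocytes express these genes.

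The total count per tumor was between 25263794 and 32654223, and all 43 members were among the 16527 genes with enough reads to be tested. Levels are given as CPM, read counts scaled to a common library size with TMM factors, always in the order replicates 1, 2 and 3. The 12 tumors came from 9 mice according to a number in the labels: replicates 1 and 2 of KP, replicates 1 and 2 of KPG1 and replicates 1 and 3 of KPG1_PPARaDN shared a mouse. The KP tumors were all from females and the KPG1 tumors all from males, while KP_PPARaDN held 1 tumor from a female and KPG1_PPARaDN 2. The tests took each tumor as a separate sample, although tumors of a mouse share it. Sex cannot be told apart from genotype between KP and KPG1. It also differed in part between the diet groups of each genotype, in opposite directions. Those comparisons and the interaction are thus partly mixed with sex. The genes that should check the labels did not follow them in every tumor. Ppara stood at 2.71, 64.5 and 246 CPM in KP_PPARaDN and 8.90, 19.2 and 17.7 CPM in KPG1_PPARaDN, against 9.53 to 15.7 CPM in KP and 7.24 to 15.3 CPM in KPG1. Slc2a1, counted over the whole gene and not over its deleted part, stood at 30.1 to 63.9 CPM in KPG1 and 35.2 to 57.6 CPM in KP, which overlapped, and at 23.7 to 54.5 CPM in KPG1_PPARaDN and 108 to 152 CPM in KP_PPARaDN. Under doxycycline it was thus lower without overlap in the floxed group, and KP_PPARaDN was also above KP without overlap. Ppara in KP_PPARaDN replicate 1 was under every tumor without doxycycline. In KPG1_PPARaDN, replicate 1 was within the range of those tumors, and replicates 2 and 3 were not far above it. The group names below are therefore those of the labels, and directions are drawn between tumors labelled so. Epithelial markers were abundant in all tumors (Epcam 298 to 622 CPM, Nkx2-1 208 to 533 CPM), and the 7 T and NK cell markers summed to 0.661 to 3.52 CPM, with Gzma and Cd4 reaching 1.88 and 1.68 CPM and Cd3e, Cd3d and Cd8a at or under 0.376 CPM. The pan-leukocyte marker Ptprc, the gene for CD45 itself, ranged from 1.88 to 31.5 CPM.

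Promoter sequence was read for the members from RefSeq windows (GRCm38.p6) that run from 250 bases before to 50 bases after a transcription start. Of the 43 members, 33 had a window; Zbp1, Dhx58, Oas2, Usp18, Mx1, Mx2, Parp9, Parp14, Iigp1 and Rtp4 had none. The core of the ISRE, searched as GAAANNGAAA on both strands, was present in 18 of these 33 genes, or 54.5%, against 3.99% of the 27025 genes in the table and 3.44% of all windows. A GAS-type motif, TTCNNNGAA, which reads alike on both strands, was present in 9 of the 33, or 27.3%, against 9.55% of all genes and 8.30% of all windows. All 5 GTPase genes with a window and both sensors with a window held an ISRE core, while 1 of 4 transcription factor genes did. The motifs can share bases but neither contains the other, and a match is a description of letters and not of binding.

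The sequences shown are the 250 bases before the start of 3 members with an ISRE core there and of 1 member without a core in its window. They had the largest changes between KPG1_PPARaDN and KPG1 among the members picked by rule for values in every tumor, so that Oas1a and Gbp2, which hold a core and are not among those, are not shown. Capitals mark the ISRE core, on either strand.
Igtp (chr11:58199306-58199555, plus strand): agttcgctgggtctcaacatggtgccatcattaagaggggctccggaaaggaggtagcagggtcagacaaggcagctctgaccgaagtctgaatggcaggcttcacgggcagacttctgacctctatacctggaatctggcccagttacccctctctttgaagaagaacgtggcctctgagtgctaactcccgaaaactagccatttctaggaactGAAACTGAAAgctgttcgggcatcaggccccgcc
Ifit3 (chr19:34583279-34583528, plus strand): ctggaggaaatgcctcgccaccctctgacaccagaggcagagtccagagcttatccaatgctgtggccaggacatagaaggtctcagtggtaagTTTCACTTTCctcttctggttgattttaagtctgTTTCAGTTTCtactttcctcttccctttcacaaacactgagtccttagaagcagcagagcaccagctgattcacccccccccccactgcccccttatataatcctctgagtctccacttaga
Oas3 (chr5:120777660-120777909, minus strand): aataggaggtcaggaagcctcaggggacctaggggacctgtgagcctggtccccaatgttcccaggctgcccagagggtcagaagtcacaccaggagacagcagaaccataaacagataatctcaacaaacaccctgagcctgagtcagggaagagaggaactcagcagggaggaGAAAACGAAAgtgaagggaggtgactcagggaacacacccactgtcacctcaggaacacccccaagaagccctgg
Oasl1 (chr5:114922990-114923239, plus strand): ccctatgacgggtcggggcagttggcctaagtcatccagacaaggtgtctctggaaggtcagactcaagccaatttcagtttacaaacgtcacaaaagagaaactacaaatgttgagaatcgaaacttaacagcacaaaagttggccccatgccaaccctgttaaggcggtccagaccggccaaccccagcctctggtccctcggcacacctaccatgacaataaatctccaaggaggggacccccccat
The single core of Igtp began 34 bases before the start and that of Oas3 75 bases before it, whereas Ifit3 held 2 cores, beginning 156 and 122 bases before the start. Ifitm3 also qualified, with 2 cores that lie after the start, at bases 3 and 20, and its sequence is not printed.

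Across the 12 tumors the members covered a wide span of levels. Per kilobase of exon, the mean level was highest for Lgals3bp, a secreted galectin-binding glycoprotein, at 68.9 CPM per kb, followed by Ifitm3 at 30.3, Samd9l at 29.5, Trim25 at 23.9 and Bst2 at 18.3 CPM per kb. At the low end stood Oas3 with 0.170, Mx2 with 0.257 and Oas2 with 0.285 CPM per kb. The members also differed in how far they spread between tumors. The highest and lowest tumor differed by 43.4-fold for Iigp1, 22.3-fold for Oas3 and 20.5-fold for Mx1, but only by 1.85-fold for Trim25, 1.86-fold for Stat2, 1.95-fold for Ifih1 and 1.96-fold for Irf9.

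**Figure D1:**
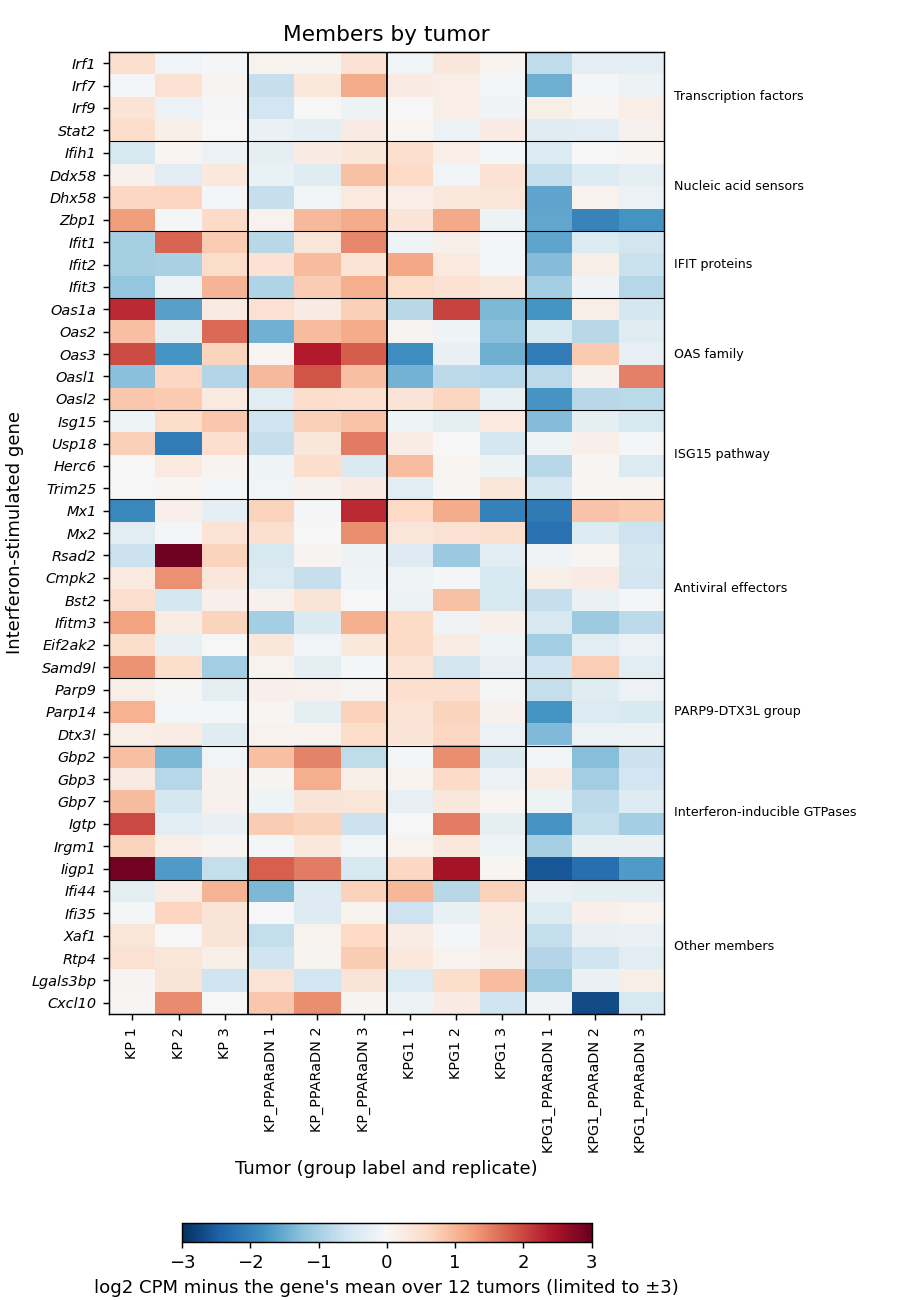
Each row is an interferon-stimulated gene, grouped by role, and each column a tumor; colour gives log2 CPM minus the mean of the gene over the 12 tumors, limited to 3 units either way. The columns of KPG1_PPARaDN are mostly blue, most of all replicate 1, and Rsad2 is dark red in KP replicate 2. KPG1_PPARaDN replicate 1 was the lowest tumor for 26 of the 43 members, a count that was not taken over all genes.

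Most members stood lower in the tumors labelled KPG1_PPARaDN than in those labelled KPG1, without any of them passing the test. The fitted difference was negative for 35 of 43 members and its median was -0.61 on the log2 scale, against 0.023 over all 16527 genes. For 18 members all 3 KPG1_PPARaDN tumors lay under all 3 KPG1 tumors, and for 0 members above them, where the background over all genes was 9.41% lower and 11.2% higher. With edgeR's quasi-likelihood test, 0 members had an adjusted p under 0.05 (smallest adjusted p = 0.420, background 0.00605%) and 12 had an unadjusted p under 0.05, 11 lower and 1 higher, against a background of 10.8%. Limma voom also called 0 members, while DESeq2 called 3, which were Zbp1, Oasl2 and Iigp1. Over all genes, limma voom called 0 and DESeq2 called 211, against 1 in edgeR. The number with an unadjusted p under 0.05 was 5 without KPG1_PPARaDN replicate 1, 7 without KPG1 replicate 2 and 7 with sex as a covariate, whereas the number with a negative difference stayed between 34 and 37 when any of the 6 tumors was left out.

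In the same comparison, marker genes of cell types also stood at different levels, none of them passing the test. The summed level of 7 epithelial markers, mostly the surfactant genes Sftpc and Sftpb, was 23125 to 33296 CPM in KPG1_PPARaDN and 34620 to 60691 CPM in KPG1, without overlap. One by one, 4 of them had negative differences and 3 positive (Nkx2-1 0.49, Cdh1 0.19 and Krt8 0.01 on the log2 scale). Only Sftpc did not overlap. All 5 endothelial markers had negative differences, with sums of 92.8 to 144.5 CPM against 92.9 to 288.0 CPM. All 5 pan-leukocyte markers had positive differences, with sums of 10.7, 27.7 and 10.6 CPM against 13.8, 15.8 and 11.5 CPM. The sums of KPG1_PPARaDN replicates 1 and 3 were under every KPG1 tumor, and that of replicate 2 was above them. The 7 T and NK cell markers summed to 1.48 to 2.52 CPM against 0.661 to 1.41 CPM, without overlap, and only 2, Gzma and Cd4, had enough reads to be tested. Gzma was higher without overlap (log2 difference 1.59 ± 1.12, SE), and Cd4 overlapped (0.19 ± 0.64, SE). Cd8a had a lower mean in KPG1_PPARaDN, at 0.032 CPM against 0.092 CPM, and the other markers a higher one. Fewer cells of a type and less RNA per cell cannot be told apart in bulk RNA, and the part of these markers in the members' levels was not tested.

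Among the transcription factors, Irf1, which drives many interferon gamma targets, stood at 50.7, 67.6 and 56.6 CPM in KPG1 and 31.6, 43.7 and 44.2 CPM in KPG1_PPARaDN. Its groups did not overlap, and the KPG1_PPARaDN tumors were also under every KP tumor (74.5, 50.2 and 51.3 CPM) and every KP_PPARaDN tumor (57.4, 56.6 and 72.3 CPM). The edgeR log2 difference was -0.55 ± 0.22 (SE; adjusted p = 0.434). Irf7, the amplifier of type I interferon production, did not overlap either, but by a narrow margin, with 7.48, 7.22 and 6.18 CPM against 2.28, 6.05 and 5.69 CPM. Its log2 difference was -0.57 ± 0.47 (SE; edgeR adjusted p = 0.69). Stat2 and Irf9, partners in the factor that binds the ISRE, overlapped between the groups, with log2 differences of -0.22 ± 0.23 and 0.11 ± 0.21 (SE).

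Zbp1, a sensor of Z-form nucleic acid that can trigger necroptosis, had the smallest p of all members in this comparison. It lies at chr2:173206612-173218923 on the minus strand (mm10, GENCODE M21). Its level was 2.52, 4.20 and 1.72 CPM in KPG1 and 0.648, 0.480 and 0.554 CPM in KPG1_PPARaDN. In KP it was 4.59, 1.85 and 2.85 CPM and in KP_PPARaDN 2.06, 3.77 and 4.15 CPM, so the 3 KPG1_PPARaDN tumors were the lowest of the 12. The log2 difference from KPG1 was -2.32 ± 0.50 (SE) with an adjusted p of 0.420 by edgeR and 0.00320 by DESeq2.

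The RNA helicase sensors stood lower too, by less. Ddx58, which recognises RNA with a 5′ triphosphate, was at 45.5, 28.7 and 40.5 CPM in KPG1 and 18.5, 22.9 and 24.6 CPM in KPG1_PPARaDN, without overlap (log2 difference -0.80 ± 0.33, SE). In KP it was at 32.99, 24.4 and 37.7 CPM and in KP_PPARaDN at 26.4, 23.6 and 55.8 CPM, and there KPG1_PPARaDN overlapped with both. Dhx58 (LGP2), a regulator of the other helicases, did not overlap between KPG1 (6.08, 6.64 and 6.84 CPM) and KPG1_PPARaDN (1.77, 5.70 and 4.68 CPM). Ifih1, the most abundant sensor and one that binds long double-stranded RNA, did overlap, with 75.8, 62.2 and 51.4 CPM in KPG1, 40.7, 52.96 and 56.4 CPM in KPG1_PPARaDN, 38.8, 56.4 and 47.4 CPM in KP and 44.6, 63.4 and 67.7 CPM in KP_PPARaDN.

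The IFIT proteins bind foreign RNA ends and block its translation. Ifit3, whose promoter holds 2 ISRE cores (above), was at 4.64, 4.40 and 3.96 CPM in KPG1 and 1.57, 2.98 and 1.75 CPM in KPG1_PPARaDN. Those groups did not overlap (log2 difference -1.04 ± 0.60, SE), but KP spread over the same range as both, with 1.44, 2.82 and 6.50 CPM, as did KP_PPARaDN with 1.71, 5.42 and 6.83 CPM. Ifit2 was at 14.1, 7.74 and 6.18 CPM in KPG1 and 2.56, 7.07 and 3.94 CPM in KPG1_PPARaDN, where replicate 2 reached into the range of KPG1. Its levels were 3.15, 3.21 and 9.25 CPM in KP and 8.56, 12.1 and 8.37 CPM in KP_PPARaDN. Ifit1 ranged from 0.750 to 7.52 CPM over all tumors and did not overlap between KPG1 and KPG1_PPARaDN. Ifit3 has a near-identical copy, Ifit3b, and reads could be shared between them, so the level of each is uncertain.

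The OAS family, enzymes and enzyme-like proteins that answer double-stranded RNA, showed no common direction between KPG1_PPARaDN and KPG1, with 3 members lower and 2 higher. In both genotype comparisons, KPG1 against KP and KPG1_PPARaDN against KP_PPARaDN, the fitted difference was negative for all 5. Oasl2 was at 11.95, 14.3 and 7.83 CPM in KPG1 and 2.69, 5.12 and 5.23 CPM in KPG1_PPARaDN. KP stood at 16.1, 15.8 and 11.1 CPM and KP_PPARaDN at 7.26, 13.3 and 12.99 CPM, so KPG1_PPARaDN held the 3 lowest tumors (log2 difference from KPG1 -1.39 ± 0.37, SE; adjusted p = 0.420 by edgeR and 0.0280 by DESeq2). Oasl1, which holds no ISRE core in its window and restrains Irf7 translation, was the 1 member with an unadjusted p under 0.05 in the other direction. It was at 1.28, 1.995 and 1.88 CPM in KPG1 and 1.94, 3.74 and 9.85 CPM in KPG1_PPARaDN, with overlap at replicate 1 (log2 difference 1.59 ± 0.65, SE). Oas1a, Oas2 and Oas3 overlapped between these groups, with log2 differences from -1.25 to 0.90, and Oas1a may share reads with close copies such as Oas1g.

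**Figure D2:**
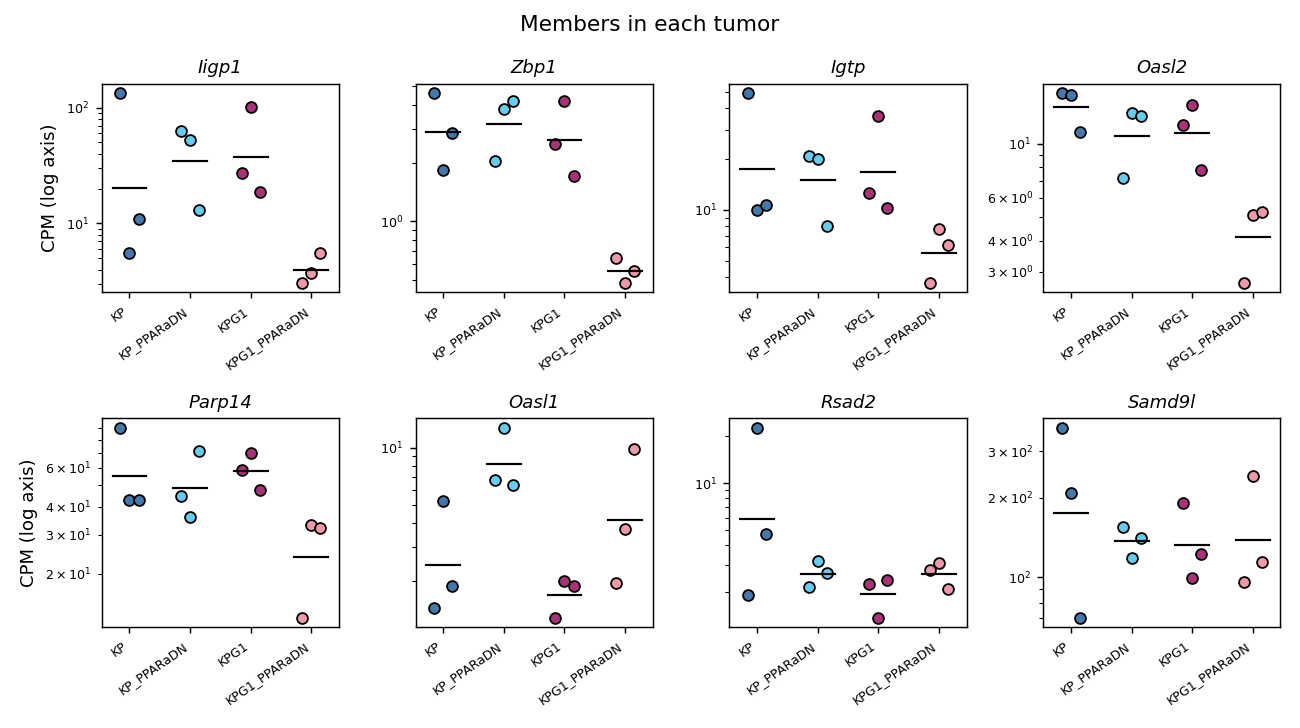
CPM of 8 members on a log axis in each of the 12 tumors; points are tumors and lines the mean of the 3 tumors on the log scale. Iigp1, Zbp1, Oasl2, Igtp and Parp14 are lowest in KPG1_PPARaDN, the mean of Oasl1 is higher in the PPARaDN group of each genotype, and Rsad2 and Samd9l reach their highest values in single KP tumors.

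The ISG15 pathway attaches the ubiquitin-like protein Isg15 to targets, and its 4 members overlapped between KPG1 and KPG1_PPARaDN without exception. Trim25, a ubiquitin ligase that acts on RIG-I, was the steadiest of all members, with 138, 141 and 133 CPM in KP, 128, 149.5 and 162 CPM in KP_PPARaDN, 108, 139.8 and 174 CPM in KPG1 and 93.9, 139 and 141 CPM in KPG1_PPARaDN. Isg15 itself ranged from 0.887 to 3.98 CPM, Herc6, the ligase for Isg15 in mouse, from 6.24 to 21.2 CPM, and Usp18, which removes Isg15 and damps receptor signalling, from 0.515 to 6.53 CPM.

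Of the 8 antiviral effectors, 3 did not overlap between KPG1 and KPG1_PPARaDN, all in the lower direction (background 9.41%). Ifitm3, a membrane protein that blocks virus entry, was at 27.1, 16.8 and 19.98 CPM in KPG1 and 12.9, 8.42 and 10.4 CPM in KPG1_PPARaDN (log2 difference -1.01 ± 0.48, SE). It was at 41.6, 20.97 and 28.5 CPM in KP and 8.87, 13.2 and 37.9 CPM in KP_PPARaDN, so the KPG1_PPARaDN tumors lay under those of KP but not under those of KP_PPARaDN. Eif2ak2 (PKR), the kinase that stops translation on double-stranded RNA, was at 95.3, 75.1 and 59.2 CPM against 31.1, 51.8 and 56.98 CPM. Mx2, a GTPase of the dynamin kind and the least abundant member in CPM, was at 1.04, 1.10 and 1.12 CPM against 0.171, 0.608 and 0.523 CPM. The other 5 overlapped, among them Bst2, which tethers budding virus (log2 difference -0.49 ± 0.38, SE), and Samd9l, a growth-restricting factor and the most abundant effector in CPM. Samd9l was at 191, 98.9 and 122 CPM in KPG1 and 95.8, 242 and 114 CPM in KPG1_PPARaDN, with 367, 207 and 70.2 CPM in KP and 155, 118 and 141 CPM in KP_PPARaDN, and its log2 difference of 0.13 ± 0.51 (SE) became -0.39 without KPG1_PPARaDN replicate 2 and -0.086 without KPG1 replicate 2.

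The Parp9, Parp14 and Dtx3l genes encode ADP-ribosyltransferases and the ubiquitin ligase partner of Parp9. Parp14 was at 58.5, 69.6 and 47.8 CPM in KPG1 and 12.7, 33.2 and 32.1 CPM in KPG1_PPARaDN. Its levels were 90.5, 43.1 and 42.9 CPM in KP and 44.9, 35.97 and 71.2 CPM in KP_PPARaDN, and the 3 KPG1_PPARaDN tumors were again the lowest of the 12 (log2 difference from KPG1 -1.17 ± 0.42, SE; edgeR adjusted p = 0.420). Parp9 did not overlap either, at 61.5, 61.2 and 41.9 CPM against 26.2, 33.5 and 37.97 CPM, while Dtx3l overlapped by a narrow margin, with 53.5, 62.8 and 36.1 CPM against 16.2, 36.1 and 36.7 CPM. All 3 had an unadjusted p under 0.05 in edgeR (background 10.8%).

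The interferon-inducible GTPases, which act on pathogen vacuoles and are typical targets of interferon gamma, include the member with the widest spread, Iigp1. It was at 27.5, 102 and 18.7 CPM in KPG1 and 3.07, 3.74 and 5.57 CPM in KPG1_PPARaDN. Its levels were 133, 5.58 and 10.9 CPM in KP and 62.3, 52.1 and 13.02 CPM in KP_PPARaDN, so KPG1_PPARaDN held the 3 lowest tumors, though its highest, at 5.57 CPM, was next to the lowest KP tumor at 5.58 CPM. The log2 difference from KPG1 was -3.58 ± 1.14 (SE; adjusted p = 0.420 by edgeR and 0.0206 by DESeq2).

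Igtp, whose promoter holds an ISRE core close to the start (above), lies at chr11:58199556-58207591 on the plus strand. It was at 12.7, 35.95 and 10.2 CPM in KPG1, 3.68, 7.65 and 6.15 CPM in KPG1_PPARaDN, 49.3, 10 and 10.6 CPM in KP and 21, 19.9 and 8.002 CPM in KP_PPARaDN, and KPG1_PPARaDN again held the lowest 3 (log2 difference from KPG1 -1.75 ± 0.70, SE). Irgm1, a regulator of the other GTPases of its family, did not overlap between KPG1 (32.9, 38.3 and 28.04 CPM) and KPG1_PPARaDN (15.4, 26.4 and 26.2 CPM). Gbp2, Gbp3 and Gbp7, guanylate-binding proteins whose genes lie in clusters of close copies that may share reads, overlapped, with log2 differences between -1.12 and -0.50.

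Of the 6 remaining members, Xaf1, a promoter of apoptosis, and Rtp4, a chaperone of receptors, did not overlap between KPG1 and KPG1_PPARaDN. Rtp4 was at 3.40, 2.92 and 3.07 CPM against 1.47, 1.79 and 2.15 CPM and Xaf1 at 13.1, 10.8 and 13.2 CPM against 6.75, 9.60 and 9.75 CPM. Lgals3bp was at 137, 261 and 347 CPM in KPG1, 86.9, 158 and 205 CPM in KPG1_PPARaDN, 194, 239 and 121 CPM in KP and 241, 122 and 239 CPM in KP_PPARaDN, and all 4 groups overlapped. Ifi44 and Ifi35 overlapped too, with log2 differences of -0.73 ± 0.59 and 0.10 ± 0.29 (SE).

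Read over all members, 8 genes had all 3 KPG1_PPARaDN tumors under the other 9 tumors: Irf1, Zbp1, Oasl2, Mx2, Parp14, Igtp, Irgm1 and Iigp1. The background of this pattern was 67 of 16527 genes, or 0.405%, and the pattern was chosen after the values were seen. The mean log2 CPM of the 43 members was 2.43, 2.99 and 3.00 in KPG1_PPARaDN, 3.44, 3.64 and 3.19 in KPG1, 3.69, 3.36 and 3.49 in KP and 3.25, 3.67 and 3.82 in KP_PPARaDN. Replicate 1 of KPG1_PPARaDN was the lowest tumor on this measure. The lowest 3 tumors were those of KPG1_PPARaDN, which came from 2 mice.

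**Figure D3:**
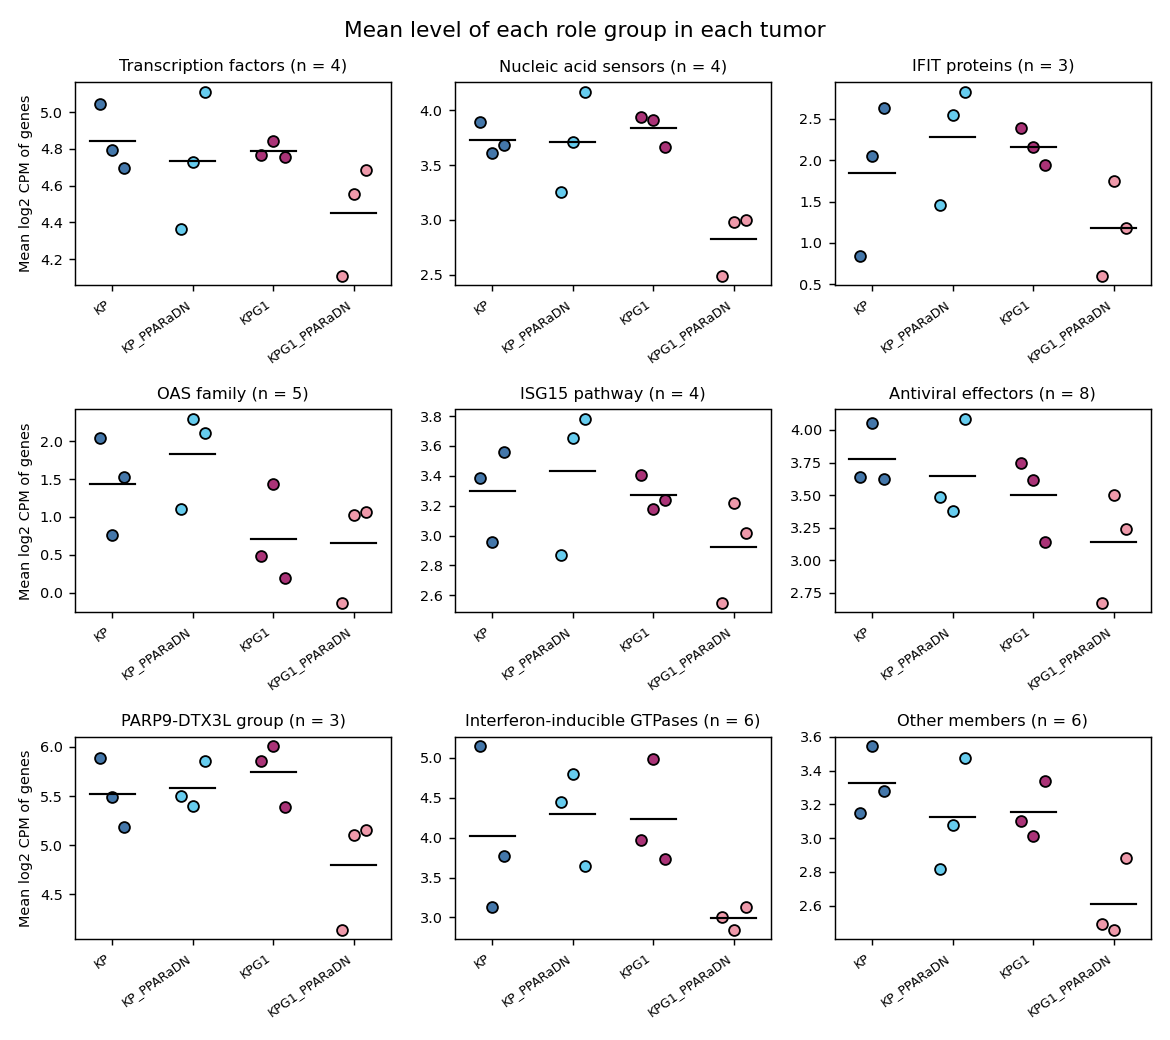
Mean log2 CPM of the genes of each role group (n is the number of genes) in each tumor, with points for tumors and lines for group means. The sensors, IFIT proteins, GTPases, PARP9-DTX3L group, transcription factors and other members have all KPG1_PPARaDN points under those of KPG1, whereas the OAS family, ISG15 pathway and antiviral effectors overlap.

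Between KP_PPARaDN and KP, the same 15 days of doxycycline in tumors labelled without Glut1 Fl/Fl, the members showed no common direction. The fitted difference was negative for 22 members and positive for 21, with a median of -0.0031 on the log2 scale against -0.0082 over all genes. For 1 member, Cmpk2, the groups did not overlap and it was lower (background 6.7%), and for 1, Oasl1, they did not overlap and it was higher (background 6.55%). In edgeR, 0 members had an adjusted p under 0.05 (smallest 0.329, background 0.00605%), and 3, Cmpk2, Rsad2 and Oasl1, had an unadjusted p under 0.05 (background 11.4%). Limma voom and DESeq2 also called 0 members, with 1 and 372 genes called in all. The fibroblast markers summed to 174.5 to 335.8 CPM in KP_PPARaDN and 71.7 to 154 CPM in KP, without overlap. Erythroid markers summed to 774 to 1265 CPM against 306 to 747 CPM, also without overlap. In each of these lists 1 marker, Lum and Hbb-bt, had a negative difference. The sum of the 5 leukocyte markers overlapped, with 3 negative differences and 2 positive, and Cd53 among them was higher without overlap. None of these markers passed the test, and their part in the members' levels was not tested.

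Oasl1 was at 1.44, 5.24 and 1.88 CPM in KP and 6.75, 12.7 and 6.39 CPM in KP_PPARaDN. All 3 tumors of KP_PPARaDN were above those of KP, and the log2 difference of 1.59 ± 0.64 (SE; edgeR adjusted p = 0.397) was close in size to the 1.59 ± 0.65 (SE) in the tumors with floxed Slc2a1. Rsad2 (viperin), which makes a chain-terminating nucleotide, was at 1.92, 22.6 and 4.73 CPM in KP and 2.16, 3.16 and 2.68 CPM in KP_PPARaDN. Its log2 difference of -1.87 ± 0.71 (SE) rested on KP replicate 2, the only tumor of the 12 above 5 CPM, and was -0.32 without it. Cmpk2, a nucleotide kinase and the genomic neighbour of Rsad2, was at 6.13, 12.8 and 6.30 CPM in KP and 3.77, 3.10 and 4.52 CPM in KP_PPARaDN, again with its highest value in KP replicate 2. Without that tumor, 1 member in place of 3 had an unadjusted p under 0.05.

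Mx1, the GTPase that blocks influenza virus in mice with an intact gene, was at 2.05, 8.73 and 6.57 CPM in KP and 12.5, 7.65 and 37.1 CPM in KP_PPARaDN. The groups overlapped (log2 difference 1.72 ± 0.93, SE), with KP_PPARaDN replicate 3 the highest of all 12 tumors, and in KPG1 and KPG1_PPARaDN it spread from 1.81 to 17.1 CPM. C57BL/6 mice carry a defective Mx1 allele, so its RNA does not stand for a working protein.

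**Figure D4:**
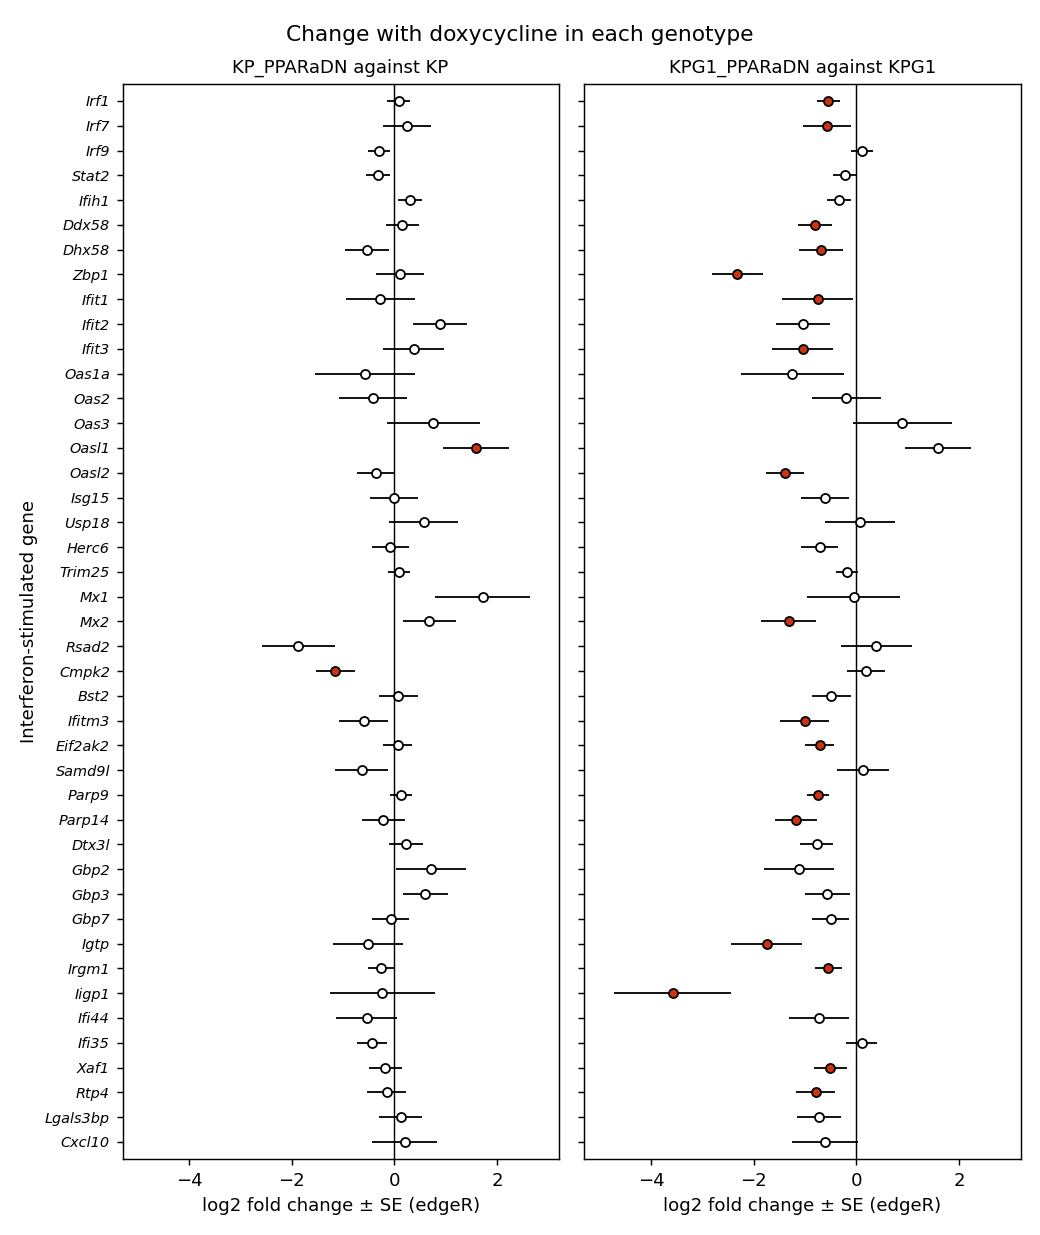
Fitted log2 fold change of each member with its standard error, KP_PPARaDN against KP on the left and KPG1_PPARaDN against KPG1 on the right; red points mark members whose 3 tumors per group did not overlap. The right panel holds 18 red points, all under 0, and the left panel 2, Oasl1 and Cmpk2.

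The difference between these changes was tested as an interaction in the same fit. It was negative for 35 of 43 members, with a median of -0.64 against 0.028 over all genes, and became -0.34 with sex as a covariate. In edgeR, 0 members passed at an adjusted p under 0.05 (smallest 0.335, background 0%), and 7 had an unadjusted p under 0.05 (background 11.8%). Limma voom called 0 members and DESeq2 called 1, Zbp1 (adjusted p = 0.0393), with 0 and 286 genes called in all. The log2 interaction of Zbp1 was -2.42 ± 0.68, that of Ifit2 -1.94 ± 0.74 and that of Parp9 -0.89 ± 0.30 (SE), and in the other direction that of Rsad2 was 2.26 ± 0.99 and that of Cmpk2 1.34 ± 0.53. The unadjusted count was 11 without KP replicate 1 and 4 without KP replicate 2, KP_PPARaDN replicate 2 or KPG1_PPARaDN replicate 1.

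Between KPG1 and KP, without doxycycline, 27 members were lower and 16 higher in KPG1, with a median of -0.11 on the log2 scale against -0.029 over all genes. It was 0.17 without KP replicate 1 and 0.038 without KPG1 replicate 3. Only Cmpk2 did not overlap, and it was lower (background 5.13% lower, 4.82% higher). The edgeR test called 0 members (smallest adjusted p = 0.785, background 0.0363%), with 2 at an unadjusted p under 0.05, Rsad2 and Cmpk2 (background 6.23%). Limma voom and DESeq2 called 0 members, with 5 and 60 genes called in all. That unadjusted count was 4 without KP replicate 3 or without KPG1 replicate 3. The sums of some markers of myeloid cells stood lower in KPG1 too, without any marker passing the test. The macrophage and monocyte markers summed to 34.2 to 48.4 CPM in KPG1 and 57.8 to 58.2 CPM in KP, and the dendritic cell markers to 3.40 to 5.09 CPM against 9.57 to 34.7 CPM, neither with overlap. Of the 6 macrophage and monocyte markers, all lower, only Mrc1 did not overlap. The dendritic cell sum was mostly Itgax in KP replicate 1 (19.2 CPM) and Ccr7 in KP replicate 2 (32.9 CPM). Neutrophil markers summed to 1.58 to 2.80 CPM against 1.61 to 7.29 CPM, with overlap, and 1 of 4, Retnlg, was higher in KPG1. All 5 pan-leukocyte markers had negative differences, and the part of these markers in the members' levels was not tested.

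Rsad2 was at 2.28, 1.38 and 2.41 CPM in KPG1, against the 1.92, 22.6 and 4.73 CPM in KP (log2 difference -2.27 ± 0.72, SE). That difference was -0.72 without KP replicate 2. Oas3 was at 2.84, 0.212 and 1.15 CPM in KP, 0.200, 0.619 and 0.264 CPM in KPG1, 0.754, 3.81 and 2.54 CPM in KP_PPARaDN and 0.171, 1.25 and 0.615 CPM in KPG1_PPARaDN. Oas2 was at 1.92, 0.849 and 3.34 CPM in KP, 1.08, 0.929 and 0.429 CPM in KPG1, 0.377, 1.97 and 2.21 CPM in KP_PPARaDN and 0.750, 0.576 and 0.800 CPM in KPG1_PPARaDN. Both synthetases, which make the activator of RNase L, overlapped between KP and KPG1, with log2 differences of -1.93 ± 0.97 and -1.32 ± 0.68 (SE).

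Between KPG1_PPARaDN and KP_PPARaDN, both under doxycycline, 39 of 43 members were lower in KPG1_PPARaDN, with a median of -0.72 on the log2 scale against 0.0052 over all genes. This comparison shares its KPG1_PPARaDN tumors with that against KPG1, so the same low tumors enter both. Groups did not overlap for 16 members in the lower direction (background 7.25%) and for 1, Irf9, in the higher (background 10.3%). In edgeR, 0 members had an adjusted p under 0.05 (smallest 0.362, background 0.0303%) and 10, all lower, an unadjusted p under 0.05 (background 9.69%), which was 6 without KPG1_PPARaDN replicate 1. Limma voom called 0 members and DESeq2 called 3, again Zbp1, Oasl2 and Iigp1, with 5 and 155 genes called in all.

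The log2 difference was -3.36 ± 1.13 for Iigp1 and -2.56 ± 0.50 (SE) for Zbp1. Cxcl10, a chemokine that draws T cells, was at 2.88, 4.29 and 1.74 CPM in KP_PPARaDN and 1.53, 0.256 and 1.17 CPM in KPG1_PPARaDN, without overlap (log2 difference -1.59 ± 0.65, SE). In KP it was at 1.68, 4.42 and 1.67 CPM and in KPG1 at 1.48, 1.96 and 1.09 CPM, so the KPG1_PPARaDN tumors lay under those of KP and overlapped with those of KPG1. In these groups the neutrophil markers summed to 1.02 to 1.86 CPM in KPG1_PPARaDN and 3.97 to 10.7 CPM in KP_PPARaDN, and the fibroblast markers to 81.1 to 126.0 CPM against 174.5 to 335.8 CPM, neither with overlap. Of the 43 marker genes tested over all lists, 36 were lower in KPG1_PPARaDN and 7 higher, none passing the test. Their median log2 difference was -0.65. All 5 pan-leukocyte, all 6 macrophage and monocyte and all 5 endothelial markers were among the lower ones. The part of the markers in the members' levels was not tested.

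Tumors of the same mouse also differed in these genes. Iigp1 differed 23.9-fold between replicates 1 and 2 of KP, and 18 of the 43 members, or 41.9%, differed by over 2-fold between these tumors, against 29.9% of all genes tested. In KPG1 the corresponding count between replicates 1 and 2 was 7, or 16.3% against 18.6%, with Oas1a the largest at 7.19-fold. In KPG1_PPARaDN it was 11 between replicates 1 and 3, or 25.6% against 18.5%, with Mx1 the largest at 7.56-fold. The median log2 difference of the members, the second named tumor minus the first, was -0.14 in KP, 0.21 in KPG1 and 0.53 in KPG1_PPARaDN. KP replicate 1 was the highest of the 12 tumors for 13 members, among them Iigp1, Igtp, Irgm1, Gbp7, Zbp1 and Irf1. How often a tumor was the highest or lowest was not counted over all genes. The sum of the 5 leukocyte markers was also highest in that tumor, at 64.2 CPM against 5.91 CPM in replicate 2 of the same mouse, as were Ptprc, Coro1a and Laptm5 among them, whereas Cd53 and Cd52 were highest in KP_PPARaDN replicates 2 and 3. KPG1 replicate 2, the tumor with the second highest Iigp1, had a leukocyte sum of 15.8 CPM, within the 10.6 to 43.6 CPM of the tumors other than those in KP. Whether leukocyte RNA set the GTPase levels was not tested. KP replicate 2, the highest tumor for 6 members, among them Rsad2, Cmpk2, Ifit1 and Cxcl10, held 32.9 CPM of the dendritic cell marker Ccr7, against at most 6.75 CPM elsewhere. The other 4 dendritic cell markers were low there, with Itgax at 1.79 CPM, against 19.2 CPM in KP replicate 1, Xcr1 at 0.030 CPM and Flt3 and Siglech at 0.

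Of the other genes of the pathway, the interferons themselves were at or near 0. Ifnb1, Ifna1, Ifna4, Ifna5, Ifnk, Ifnl2 and Ifnl3 had no read in any tumor, which allows up to 0.119 CPM in the shallowest tumor by a limit of 3 counts, for counting error only. Over all 12 tumors together Ifng and Ifne had 13 reads each and Ifna2 had 3, so no ligand could be tested. The receptors were well expressed. Ifnar2, a chain of the type I receptor, was at 34.8, 30.4 and 28.8 CPM in KPG1 and 12.3, 20.2 and 18.1 CPM in KPG1_PPARaDN, without overlap (log2 difference -0.89 ± 0.31, SE; edgeR adjusted p = 0.420). Its partner Ifnar1 overlapped, with 87.9, 95.2 and 75.3 CPM against 63.9, 92.9 and 87.96 CPM, and Ifnlr1, the chain specific to type III interferon, was higher without overlap, with 31.3, 32.4 and 41.1 CPM against 47.9, 41.7 and 49.5 CPM.

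Nlrc5, the transactivator of MHC class I genes, was at 10.5, 32.3 and 2.84 CPM in KPG1 and 1.40, 1.47 and 2.65 CPM in KPG1_PPARaDN, with 112, 4.39 and 9.67 CPM in KP and 25.4, 11.6 and 4.29 CPM in KP_PPARaDN. Like Iigp1, it was highest in KP replicate 1 and next in KPG1 replicate 2. Tgtp1 and Tgtp2, T cell specific GTPases in near-identical copies, were lower in KPG1_PPARaDN than in KPG1 by log2 differences of -2.65 ± 1.15 and -2.50 ± 1.01 (SE). Ifit3b had the interaction with the smallest p in the list, -3.31 ± 0.83 (SE; edgeR adjusted p = 0.330).

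KP replicate 2 stood apart for Mb21d1 (cGAS), the sensor of cytosolic DNA, at 1.44, 11.1 and 2.78 CPM in KP and 0.774 to 1.60 CPM in all other groups, for the helicase Ddx60 at 1.13, 21.6 and 1.32 CPM in KP, and for Cd274 (PD-L1) at 5.06, 34.9 and 9.22 CPM in KP. Ifit1bl1, of the IFIT kind, was at 0.992, 0.182 and 1.01 CPM in KP and 3.56, 1.10 and 2.91 CPM in KP_PPARaDN. Of 68 pathway genes tested, edgeR called 0 in any of the 5 comparisons. Between KPG1_PPARaDN and KPG1, 49 of them were lower, with a median log2 difference of -0.35, and 20 did not overlap in the lower direction and 2 in the higher (background 9.41% and 11.2%). Unadjusted p-values under 0.05 numbered 14 of 68 in that comparison (background 10.8%), 3 between KP_PPARaDN and KP (11.4%), 6 between KPG1 and KP (6.23%), 13 between KPG1_PPARaDN and KP_PPARaDN (9.69%) and 13 in the interaction (11.8%).

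The members with and without an ISRE core in the promoter window were set side by side as a description. Between KPG1_PPARaDN and KPG1, 16 of 18 members with a core were lower, with a median log2 difference of -0.61, and 10 of 15 without one, with a median of -0.55. Between KPG1_PPARaDN and KP_PPARaDN, all 18 with a core and 11 of 15 without were lower, with medians of -0.91 and -0.42. Between KP_PPARaDN and KP, 9 of 18 and 8 of 15 were lower, with medians of 0.032 and -0.082.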

How the data were processed

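The data are RNA-seq of CD45-negative cells from 12 lung tumors of mice. Groups, replicate numbers, sex and the number read as the mouse were taken from the sample labels. The authors trimmed reads, mapped them with HISAT2 (mm10) and deposited raw read counts per gene (the submitters' notes also name featureCounts 1.4.4 and cutadapt 1.4.2). The kit was stranded, and the strand setting of the counting is not given in the sources used here. The counts of the 12 tumor files were equal to those of the combined table. A deposited table of log2 values was not used.

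The counts were fitted with edgeR 4.0.16 under R 4.3.3 (TMM, filterByExpr by group, glmQLFit and glmQLFTest) with all 12 tumors in 1 fit, which left 8 residual degrees of freedom, and p-values were adjusted by Benjamini-Hochberg over 16527 genes at a threshold of 0.05. The study's own test, limma 3.58.1 voom, and DESeq2 1.42.0 were alternatives. The standard error was taken as the absolute log2 fold change over the root of the F statistic. Means of log2 CPM over members used a prior count of 2. Total counts of 25263794 to 32654223 set the counting error, which for most members is small beside the spread between tumors. Scripts were tested on simulated data.

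The members and all gene lists were chosen with earlier results of these data known. Values in every tumor are given for up to 8 members with the largest change among those without overlap and with a mean of at least 1 CPM in each doxycycline comparison (the 3 largest changes where fewer than 3 qualified), for up to 3 in each genotype comparison, and for the most abundant member of each role. Values of further members were added after they were seen. A gene of the pathway list that enters its counts is not reported here. Exon lengths and positions come from GENCODE M21 (on mm10), and promoter windows from RefSeq on GRCm38.p6. Alternatives were other normalizations, no filter, the compared groups alone, sex as a covariate, a replicate block, summed tumors of a mouse and leaving out each tumor.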

Additional observations from a re-analysis of the deposited data

How the results depend on the processing

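Between 3 tumors and 3 from 2 or 3 mice, the spread between tumors limits every comparison more than depth does, and tumors of a mouse are not independent. The counts of members called at an adjusted p under 0.05 by edgeR stayed at 0 in all 5 comparisons under every alternative except DESeq2. DESeq2 called 3 in KPG1_PPARaDN against KPG1 (Iigp1 -3.59, Zbp1 -2.34 and Oasl2 -1.40 on the log2 scale), 3 in KPG1_PPARaDN against KP_PPARaDN and 1 in the interaction. Over all genes it called 211, 155 and 286 in these comparisons, and the cause of the difference between tools was not tested. The median difference of the members between KPG1 and KP, -0.11, ranged from -0.19 to 0.17 when a tumor was left out, with the highest value without KP replicate 1. In the interaction the median moved from -0.64 to -0.34 with sex as a covariate, and between KPG1_PPARaDN and KPG1 it stayed between -0.77 and -0.47 when a tumor was left out and between -0.68 and -0.55 under the other alternatives. Samd9l between KPG1_PPARaDN and KPG1 ranged from -0.39 to 0.45 when a tumor was left out, turning negative without KPG1 replicate 2 (-0.086) or KPG1_PPARaDN replicate 2 (-0.39). Replicate numbers did not pair the tumors: correlations between same-numbered tumors of compared groups were between -0.17 and 0.090, and 0 of 12 were over 0.1. With the number as a replicate block, 0 members were called and the median between KPG1_PPARaDN and KPG1 was -0.68, and no call changed. Counted over the alternatives, the log2 differences of the members named by rule, each in the comparison that named it, kept direction and call 338 times, passed the threshold 5 times, each in DESeq2, and reversed 2 times. The DESeq2 calls of Oasl2 against KP_PPARaDN and of the Zbp1 interaction are outside this count.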
